A study of Mus musculus with 12 samples.

Results

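Expression of 10 genes of pluripotency and of primordial germ cells was examined in sorted cells of the fetal mouse ovary after maternal treatment with dexamethasone. The genes were Pou5f1 (OCT4), Nanog, Sox2, Lin28a, Prdm1, Prdm14, Tfap2c, Dppa3, Kit and Utf1, chosen by name, and all 10 had a row among the 54532 genes counted. Bulk RNA-seq had been performed on cells of female embryos at embryonic day E15.5. They were sorted by the reporter Tg(Pou5f1-EGFP)2Mnn, a transgene in which Pou5f1 regulatory sequence drives a green fluorescent protein (GFP). Pregnant dams received 4 daily intraperitoneal injections, from E12.5 to E15.5, of saline or of dexamethasone (dex, a synthetic glucocorticoid receptor agonist), 10 µg for each gram the dam weighed. The sort of the ovaries kept germ cells, which were GFP-positive, and all GFP-negative cells, which hold the whole ovarian soma. This gave 4 groups of 3 libraries, namely germ cells after saline, germ cells after dex, soma after saline and soma after dex. Both treatments and both cell fractions shared the reporter, the age and the sex, and no group was labelled as lacking the transgene. The cross that gave these litters is not stated in the sources used here. Each library held cells pooled from at least 2 separately dosed litters, so values are averages over embryos. Because the reporter is driven by Pou5f1 sequence, the sort itself bears on the difference in Pou5f1 between germ cells and soma.

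OCT4, SOX2 and NANOG are the transcription factors at the centre of the pluripotency network of the early embryo. Primordial germ cells are set aside from the epiblast by BLIMP1 (Prdm1), PRDM14 and AP2γ (Tfap2c), and they then express the pluripotency factors again until they enter meiosis in the fetal ovary or mitotic arrest in the testis. KIT, the receptor for KIT ligand from somatic cells, carries survival and migration signals to germ cells and serves mast cells and melanoblasts in the same way.

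The sequence before the start of a gene is shown for 3 of the 10 genes. Nanog and Sox2 are shown because both windows held the core of the octamer, the sequence read by OCT4, and Kit because it was the gene with the clearest difference after dex. Sequences were RefSeq promoter windows (GRCm38.p6), of which 7 of the 10 genes had at least 1. Bases are written 5′ to 3′ on the plus strand, the strand of all 3 genes, and stop before both the RefSeq start and the start of the counted gene. The windows are chr6:122707239-122707488 for Nanog, chr3:34649745-34649994 for Sox2 and chr5:75574737-75574915 for Kit. Capitals mark the octamer core ATGCAAA and the SOX core CATTGT in Nanog, the octamer core in Sox2 and the GC box GGGCGG in Kit, each on either strand.
Nanog: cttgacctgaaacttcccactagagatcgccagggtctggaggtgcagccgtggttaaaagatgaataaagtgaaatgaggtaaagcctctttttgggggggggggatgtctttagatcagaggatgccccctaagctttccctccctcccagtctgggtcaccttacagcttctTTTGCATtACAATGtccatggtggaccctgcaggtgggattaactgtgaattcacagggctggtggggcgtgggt
Sox2: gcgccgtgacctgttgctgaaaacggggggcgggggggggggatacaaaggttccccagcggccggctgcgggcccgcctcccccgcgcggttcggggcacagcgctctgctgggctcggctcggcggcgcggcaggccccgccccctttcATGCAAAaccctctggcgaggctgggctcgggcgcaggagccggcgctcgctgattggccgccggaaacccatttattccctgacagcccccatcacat
Kit: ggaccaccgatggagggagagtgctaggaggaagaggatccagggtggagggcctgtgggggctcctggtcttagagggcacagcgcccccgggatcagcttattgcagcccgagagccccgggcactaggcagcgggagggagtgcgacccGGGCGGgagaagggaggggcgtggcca
In Nanog the octamer core lay 75 to 69 bases before the start and the SOX core 67 to 62 bases before it, both on the opposite strand and 1 base apart. Over 32851 RefSeq promoter windows of 300 bases, 4.63% held the octamer core, 12.6% the SOX core, 1.74% the full octamer ATGCAAAT and 35.7% a GC box. The pair spaced as in Nanog, an arrangement searched for after the sequence had been seen, was held by 2 windows, both of them Nanog entries. The letters AGAACA, 1 arm of the glucocorticoid response element, was held by 19% of all windows and its full inverted repeat by 3 windows, and no window of the 7 genes held either. A match is a string of letters and not a measured binding site.

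The 12 libraries held 14658503 to 18245507 counts, and 23206 to 26454 genes had a count in each. Levels are given as CPM (counts scaled to the size of each library, with TMM factors), with the SD over 3 libraries, and 3 counts in a library, taken as the floor of detection, equalled 0.169 to 0.201 CPM. Of 6 germ cell markers summed, the germ cell libraries held 2730 to 3257 CPM, and the soma held 6.67 to 10.96 CPM after saline and 16.9 to 24.6 CPM after dex. The rise in the soma was mostly that of Dazl, which encodes an RNA-binding protein of germ cells and went from 1.17 ± 0.193 to 12.8 ± 0.134 CPM. Stromal markers summed to 96.1 to 207.8 CPM in germ cells and 14648 to 19063 CPM in the soma. The 8 markers of pregranulosa and supporting cells, Kitl among them, summed to 23.2 to 97.1 CPM in germ cells and 544 to 749 CPM in the soma. The share of somatic RNA in the germ cell libraries thus differed by marker list. Its part in low germ cell levels was not tested.

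**Figure D1:**
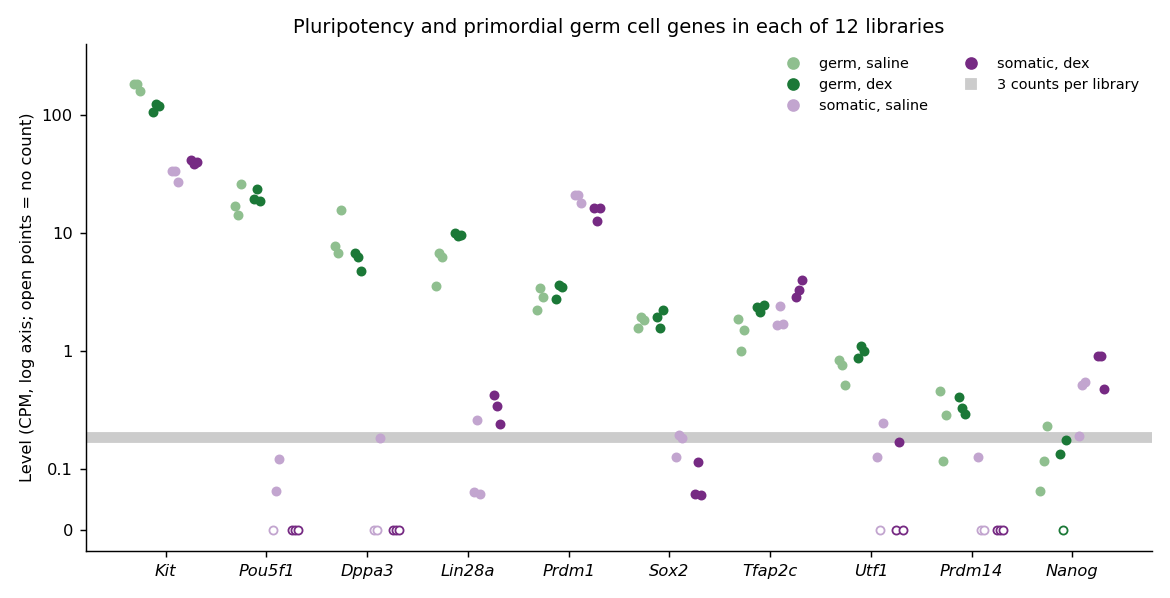
Level of each of the 10 genes in every library, in CPM on a log axis, ordered by the mean in saline germ cells; colours give the 4 groups, open points at the bottom are libraries with no count, and the grey band is the level of 3 counts. Kit lay above 100 CPM in all 6 germ cell libraries, Prdm1 was higher in the soma, and Prdm14 stayed near the grey band. Nanog was higher in the soma after dex, and its saline groups overlapped.

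Levels were first ordered within a group per gene length, as FPKM (fragments per exon length and library size). In saline germ cells Kit was highest at 19.8 ± 1.49 FPKM (SD, n = 3), followed by Dppa3 at 11.4 ± 5.60 FPKM and Pou5f1 at 8.54 ± 2.80 FPKM. Lin28a at 1.39 ± 0.435 FPKM and Sox2 at 0.868 ± 0.0952 FPKM came next, and Utf1, Prdm1, Tfap2c, Prdm14 and Nanog followed at 0.579, 0.509, 0.398, 0.112 and 0.0617 FPKM. The libraries of Kit and Dppa3 did not overlap, nor did those of Pou5f1 and Lin28a, of Sox2 and Utf1, or of Tfap2c and Prdm14. All other neighbours in the order overlapped. In dex germ cells the order began with Kit at 13.0 ± 1.22 FPKM, Pou5f1 at 9.12 ± 1.17 FPKM and Dppa3 at 6.59 ± 1.07 FPKM. Pou5f1 and Dppa3 thus changed places, and their libraries did not overlap after dex. In the saline soma Prdm1 at 3.46 ± 0.292 FPKM and Kit at 3.41 ± 0.401 FPKM overlapped at the top, Tfap2c stood at 0.503 ± 0.108 FPKM and Nanog at 0.1803 ± 0.0856 FPKM. The other 6 genes were under 0.1 FPKM there.

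Germ cells and soma were then compared within each treatment. Among saline libraries 6 of the 7 genes tested were called (edgeR's quasi-likelihood test, Benjamini-Hochberg adjusted p of at most 0.05), 5 higher and 1 lower in germ cells, beside 86.1% of all 17941 genes tested. Among dex libraries 7 of 8 were called, 6 higher and 1 lower, beside 84.3% of 18171 genes. Both shares are near the background. Pou5f1, Sox2, Lin28a, Dppa3 and Utf1 passed the low-count filter only through the germ cells, where they were high, so nothing is read from these counts and no p of this comparison is given for those genes. The size and order of the differences, gene by gene, are described below. The low-count filter removed Nanog and Prdm14 from every comparison and Utf1 from the saline one.

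Pou5f1 (ENSMUSG00000024406, chr17:35506018-35510772, GRCm38), the gene of OCT4, was at 17.0, 14.2 and 25.8 CPM in the germ cell libraries of saline and 19.3, 23.4 and 18.8 CPM in the dex germ cell libraries. The soma had 0, 1 and 2 counts after saline and none in 3 libraries after dex, so no somatic library came near a germ cell library. Set against the floor, germ cells held at least 101-fold higher Pou5f1 after saline and at least 116-fold higher after dex, a difference that the sort on a Pou5f1 reporter bears on. An antisense gene that overlaps it, Gm19553, had at most 1 count.

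Sox2 (ENSMUSG00000074637, chr3:34650405-34652461), which encodes the DNA-binding partner of OCT4, was at 1.55, 1.92 and 1.83 CPM in germ cells given saline and 1.94, 1.55 and 2.22 CPM in those given dex. Each germ cell library had 24 to 38 counts and each somatic library 1 to 3. Germ cells held at least 9.4-fold higher Sox2 after saline and at least 10.8-fold higher after dex. Sox2 lies inside Sox2ot, a noncoding gene on the same strand with up to 21 counts in germ cells, so the split of reads between the pair is uncertain.

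Nanog (ENSMUSG00000012396, chr6:122707489-122714633), the homeobox gene of the core network, ran the other way. Germ cells had 1, 2 and 4 counts after saline and 2, 0 and 3 after dex, whereas the soma had 3, 8 and 9 counts after saline and 15, 16 and 8 after dex. Every dex somatic library was above every dex germ cell library, and the saline groups overlapped. In CPM the soma was at 0.417 ± 0.198 after saline and 0.761 ± 0.247 after dex (SD, n = 3), and after dex Nanog was at least 4.01-fold higher in the soma than the floor in germ cells. Without the low-count filter the germ minus somatic log2 difference was -1.56 after saline (SE 0.92, edgeR, adjusted p = 0.148) and -2.76 after dex (SE 0.89, edgeR, adjusted p = 0.0044). Nanog RNA was thus at or near the floor in germ cell libraries that held Pou5f1 and Sox2 RNA, and a level under 3 counts was not detectable at this depth. Reads of its pseudogenes Nanog-ps1 and Nanog-ps2 numbered 0 in all libraries.

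Utf1 (ENSMUSG00000047751, chr7:139943789-139945112), a chromatin-bound protein gene of pluripotent cells, had 13, 13 and 9 counts in saline and 13, 17 and 17 in dex germ cells. The soma had 2, 0 and 4 counts after saline and 0, 3 and 0 after dex, below every germ cell library. Germ cells held at least 5.6-fold higher Utf1 after dex. Lin28a (ENSMUSG00000050966, chr4:134003330-134018841, minus strand), which encodes an RNA-binding protein that blocks let-7 maturation, was at 3.55, 6.76 and 6.23 CPM in germ cells given saline and 10.0, 9.31 and 9.56 CPM in those given dex. Its somatic libraries had 1, 4 and 1 counts after saline and 7, 6 and 4 after dex. The germ minus somatic log2 difference was 5.39 after saline (SE 0.50) and 4.81 after dex (SE 0.30). The saline somatic mean, 0.127 CPM, lay below the level of 3 counts, and without saline somatic library 2, the one with 4 counts, the fitted saline value was 6.31. A gene on the opposite strand, Gm13061, overlaps Lin28a and had up to 31 counts in germ cells, and whether reads were counted by strand is not given in the sources used here.

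The 3 specifiers of primordial germ cells differed among themselves. Prdm1 (ENSMUSG00000038151, chr10:44437177-44528501, minus strand) was at 2.20, 3.38 and 2.86 CPM in germ cells given saline and 20.8, 21.0 and 18.0 CPM in the saline soma. All 6 somatic libraries lay above all 6 germ cell libraries. The germ minus somatic log2 difference was -2.80 after saline (SE 0.19, edgeR, adjusted p = 1.66e-09) and -2.20 after dex (SE 0.20, edgeR, adjusted p = 1.26e-06). Prdm14 (ENSMUSG00000042414, chr1:13113457-13127163, minus strand) had 7, 2 and 5 counts in saline and 6, 5 and 5 in dex germ cells, against 2, 0 and 0 in the saline soma and none in the dex soma. Prdm14 was therefore only just above the floor in germ cells, at least 1.92-fold higher than the soma after dex. Tfap2c (ENSMUSG00000028640, chr2:172549593-172558622) was detected in both fractions, at 1.87, 0.991 and 1.49 CPM in germ cells given saline and 1.64, 2.39 and 1.70 CPM in the saline soma. These saline libraries overlapped. After dex they did not, at 2.13 to 2.45 CPM in germ cells and 2.84 to 3.98 CPM in the soma. The germ minus somatic log2 difference was -0.39 after saline (95% interval -1.15 to 0.38) and -0.56 after dex (-1.19 to 0.07). Neither was called (edgeR, adjusted p = 0.319 and 0.0892).

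Dppa3 (ENSMUSG00000046323, chr6:122626410-122630272), which encodes STELLA, a protein that shields methylated DNA in the zygote, was at 7.75, 6.76 and 15.6 CPM in germ cells given saline and 6.69, 6.27 and 4.72 CPM in those given dex. The soma had a count in 1 of 6 libraries, with 3 counts there. Germ cells held at least 53.4-fold higher Dppa3 after saline and at least 33.5-fold higher after dex. A pseudogene, Dppa3-ps, had up to 11 counts in germ cells. Kit (ENSMUSG00000005672, chr5:75574916-75656722) was expressed in both fractions and higher in germ cells, with a log2 difference of 2.49 after saline (SE 0.09, edgeR, adjusted p = 2.53e-12) and 1.53 after dex (SE 0.09, edgeR, adjusted p = 1.87e-08).

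The effect of dex was examined in germ cells first. Kit was the 1 gene called among the 8 tested, and it fell, beside 0.208% of 16857 genes called in that comparison. Kit was at 184, 183 and 158 CPM in the saline libraries and 106, 123 and 119 CPM in the dex libraries. All 3 dex libraries lay below all 3 saline libraries. The mean went from 175 ± 14.4 to 116 ± 8.97 CPM (SD, n = 3), a ratio of 0.664 and a log2 difference of -0.58 (SE 0.08, 95% interval -0.76 to -0.41, edgeR, adjusted p = 0.00959). In bulk samples, fewer cells that express a gene and less RNA per cell cannot be told apart. Leaving out any 1 library gave log2 differences of -0.65 to -0.53, with edgeR adjusted p-values of 0.0128 to 0.044. Markers of mast cells, which also express Kit, summed to 6.7 to 23.1 CPM in germ cells given saline and 14.7 to 53.5 CPM in those given dex, and their part was not tested. The 4 melanocyte markers summed to 25.8 to 27.1 and 29.6 to 32.7 CPM, nearly all of it Pmel (25.5 ± 0.440 and 29.9 ± 1.53 CPM), while Dct was at or near 0 and Tyr was at 0.682 ± 0.383 and 0.489 ± 0.123 CPM.

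**Figure D2:**
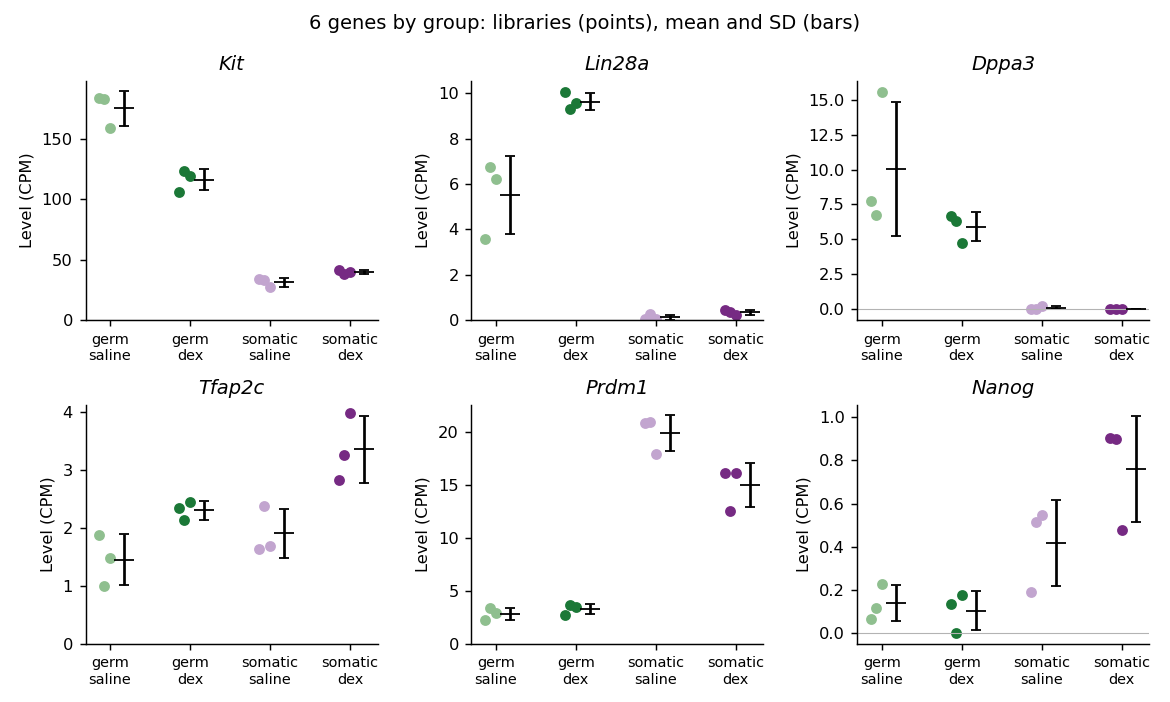
Levels of Kit, Lin28a, Dppa3, Tfap2c, Prdm1 and Nanog in CPM by group; points are the 3 libraries of a group, and the bar beside them is the mean with the SD. In germ cells the dex points of Kit and Dppa3 lie below the saline points and those of Lin28a and Tfap2c above them, and in the soma Kit and Tfap2c lie higher and Prdm1 lower after dex.

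The other 7 genes tested did not pass. The share of all genes whose dex and saline libraries did not overlap was not counted. Lack of overlap is therefore a description of these genes and is not read as an effect. Lin28a had 5.51 ± 1.72 CPM in germ cells given saline and 9.64 ± 0.373 CPM in those given dex, and the groups did not overlap. Its log2 difference was 0.81 (SE 0.22, 95% interval 0.32 to 1.30) with an unadjusted p of 0.00365 and an adjusted p of 0.222 in edgeR, which ranged from 0.0185 to 0.531 over 11 alternatives. Dppa3 had 10.0 ± 4.84 CPM in germ cells given saline and 5.89 ± 1.04 CPM in those given dex, also without overlap, a log2 difference of -0.76 (SE 0.29, edgeR, adjusted p = 0.347). That value rested on saline library 3, the highest of the 6, and without it the log2 difference was -0.30. The same library had the highest Pou5f1 and the lowest Kit of the saline germ cell libraries.

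Tfap2c had 1.45 ± 0.443 CPM in germ cells given saline and 2.31 ± 0.161 CPM in those given dex, again without overlap, a log2 difference of 0.68 (SE 0.32, edgeR, adjusted p = 0.446). Utf1 did not overlap either, at 0.704 ± 0.169 and 0.987 ± 0.114 CPM, with a log2 difference of 0.50 (SE 0.42, edgeR, adjusted p = 0.684). Pou5f1 overlapped between treatments, at 19.0 ± 6.05 and 20.5 ± 2.52 CPM, and its log2 difference of 0.12 had a 95% interval of -0.30 to 0.54. Sox2 overlapped too, at 1.77 ± 0.194 and 1.90 ± 0.334 CPM, with a log2 difference of 0.11 (-0.55 to 0.77). Prdm1 was at 2.81 ± 0.593 and 3.27 ± 0.462 CPM, with a log2 difference of 0.22 (-0.34 to 0.78). These intervals leave room for changes of Pou5f1, Sox2 and Prdm1 in either direction. Over the 8 genes the median log2 difference was 0.17, against 0.014 over all genes tested. Of the 8 values 6 were above 0 and 2 below, and those of Pou5f1 and Sox2 changed sign with a library left out. The split over all genes was not counted, and no joint shift is read from these values.

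**Figure D3:**
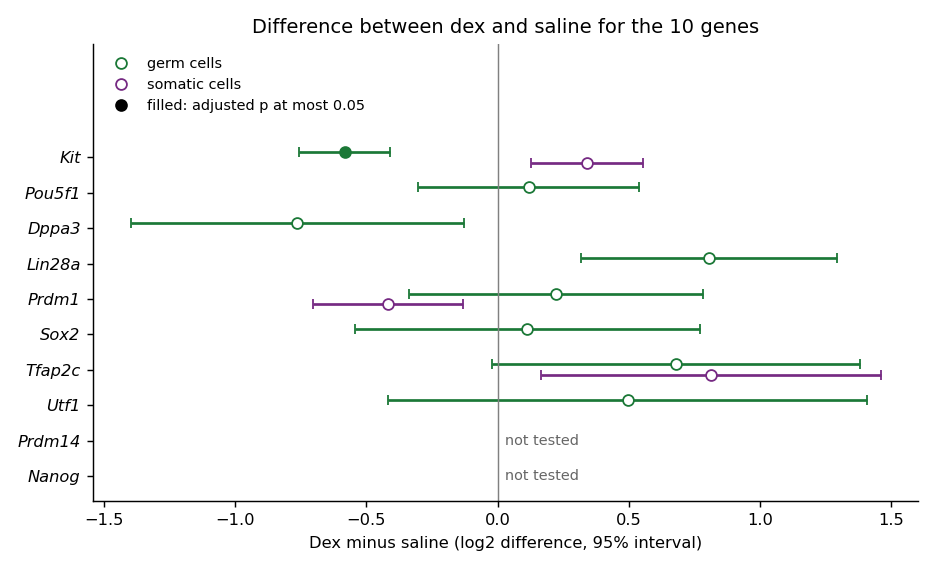
Log2 difference between dex and saline for each gene tested, with its 95% interval; green is germ cells, purple is soma, and a filled point has an adjusted p of at most 0.05. Kit in germ cells, at -0.58, is the one filled point, and Prdm14 and Nanog were not tested in either fraction.

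In the soma 3 of the 10 genes passed the low-count filter, Prdm1, Tfap2c and Kit, and edgeR called 0 of them beside 8.18% of 16556 genes. All 3 had an unadjusted p under 0.05 (edgeR), as had 3453 of those 16556 genes. DESeq2 called 1, Kit. Kit was at 33.6, 33.3 and 27.1 CPM in saline and 41.4, 38.1 and 40.0 CPM in dex somatic libraries. The dex libraries were all higher, with means of 31.3 ± 3.70 and 39.8 ± 1.69 CPM and a log2 difference of 0.34 (SE 0.10, 95% interval 0.13 to 0.56, edgeR, adjusted p = 0.0511). The adjusted p lay on both sides of 0.05 over the alternatives, from 0.0241 to 0.205. The 5 mast cell markers summed to 47.3 to 68.3 CPM in the saline and 115 to 307 CPM in the dex soma. Of these Cpa3, a mast cell protease gene, was at 26.2 ± 4.66 and 109 ± 56.5 CPM, and Fcer1a, a gene of the IgE receptor, was at or near the floor in most libraries. The melanocyte marker Tyr had no count in the soma, and Dct was at 0.796 ± 0.1495 CPM after saline and 0.434 ± 0.351 CPM after dex. The part of mast cells in somatic Kit was not tested.

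Prdm1 was at 20.8, 21.0 and 18.0 CPM in saline and 16.1, 12.6 and 16.2 CPM in dex somatic libraries, which did not overlap. The log2 difference was -0.42 (SE 0.13, edgeR, adjusted p = 0.0747), and it passed without dex library 3 (-0.48, edgeR, adjusted p = 0.0436). Macrophage markers, 6 genes, summed to 159.9 to 209.2 CPM in the saline and 46.2 to 113 CPM in the dex soma, and their part was not tested. Tfap2c was at 1.64, 2.39 and 1.70 CPM in saline and 2.84, 3.27 and 3.98 CPM in dex somatic libraries, also without overlap, with a log2 difference of 0.81 (SE 0.30, edgeR, adjusted p = 0.131). In both fractions, then, every dex library of Tfap2c was above every saline library, and in neither did the difference pass. How many of all genes separated in this way was not counted, so no effect is read from it. The other 7 genes were too low in the soma for a test.

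The dex effects in the 2 fractions were compared directly, as germ cells minus soma. Kit was the 1 gene called among 8 tested, beside 1.62% of 19390 genes. Its log2 difference of the effects was -0.94 (SE 0.13, 95% interval -1.21 to -0.66, edgeR, adjusted p = 0.000955), and it was called when any of the 12 libraries was left out (-0.99 to -0.83). Prdm1 had a value of 0.63 (SE 0.27, edgeR, adjusted p = 0.275) and Tfap2c one of -0.14 (95% interval -1.07 to 0.79). For Lin28a the value was -0.55 (-1.995 to 0.89). Pou5f1, Dppa3, Sox2 and Utf1 were at the floor or at 0 in the dex soma, and fitted differences of their effects are not given.

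Other genes of the same pathways were counted in 6 lists (pluripotency network, primordial germ cells, signals to germ cells, KIT signalling, partners of PRDM1 and PRDM14, and meiosis). In germ cells after dex edgeR called 0 of 97 list genes tested, beside 0.208% of all genes. An unadjusted p under 0.05 (edgeR) was found for 15 of them, beside 1963 of all 16857 genes tested. DESeq2 called 1, the synaptonemal complex gene Sycp1. List medians lay between -0.09 and 0.05 on the log2 scale. In the soma 13 of 85 were called, beside 8.18% of all genes tested. The lists were chosen with earlier results of these data known. A share above that of all genes, here or for a single list below, is therefore not read as an excess.

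Among 25 genes of the pluripotency network, 17 of 19 tested differed between germ cells and soma after saline, near the background of 86.1% of all genes. Of these, 11 were higher in germ cells and 6 lower. Some, such as Sall4, passed the filter through the germ cells alone, so nothing is read from that count. Trim71, an RNA-binding ubiquitin ligase and let-7 target, was at 76.3 ± 12.8 CPM in germ cells given saline and 0.104 ± 0.0342 CPM in the soma. Sall4, a zinc finger partner of OCT4, was at 8.66 ± 1.18 CPM in germ cells and had no count in any somatic library. Dppa5a at 6.73 ± 1.01 CPM and Tcl1, a cofactor of AKT, at 4.604 ± 1.44 CPM had no count in the saline soma. After dex the 1 somatic call of 14 tested, beside 8.18% of all genes, was Klf5, a Krüppel-like factor. Klf5 rose from 19.3 ± 1.52 to 33.9 ± 1.60 CPM (log2 difference 0.81, SE 0.10, edgeR, adjusted p = 0.000216).

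Among 20 primordial germ cell genes, 3 of 15 were called in the soma after dex, 2 higher and 1 lower, beside the 8.18% of all genes. Dazl rose by a log2 difference of 3.43 (SE 0.21, edgeR, adjusted p = 2.92e-07). Alpl, the tissue-nonspecific alkaline phosphatase long used to stain germ cells, rose from 26.6 ± 2.79 to 42.9 ± 2.16 CPM (log2 difference 0.69, edgeR, adjusted p = 0.000508), and it was lower in germ cells, at 3.64 ± 0.432 CPM. Sall1 fell by 0.37 on the log2 scale (edgeR, adjusted p = 0.0458), a call that held in 1 of 6 omissions of a library.

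KIT signalling held 15 genes, all of which differed between the fractions after saline, 5 higher in germ cells and 10 lower, beside 86.1% of all genes. Kitl, the gene of KIT ligand, was at 215 ± 10.7 CPM in the saline and 193 ± 34.7 CPM in the dex soma, and at 18.8 ± 7.77 and 23.5 ± 15.2 CPM in germ cells. Kitl was not called after dex in either fraction. The receptor transcript was thus higher in germ cells and the ligand transcript higher in the soma. Pik3r1, the regulatory subunit of PI3 kinase through which KIT signals, rose in the soma from 363 ± 26.8 to 648 ± 48.7 CPM (log2 difference 0.83, SE 0.08, edgeR, adjusted p = 1.23e-05) and was at 29.1 ± 0.586 and 29.8 ± 3.20 CPM in germ cells.

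Of 19 genes for BMP, WNT and retinoid signals, 6 of 16 were called in the soma after dex, 3 higher and 3 lower, beside the 8.18% of all genes. Cyp26b1, which degrades retinoic acid, rose from 16.3 ± 2.13 to 27.4 ± 1.27 CPM (log2 difference 0.74, SE 0.12, edgeR, adjusted p = 0.00159). Msx2, a BMP target, rose by 0.96 and Stra6, a retinol transporter, by 0.29, whereas Id1, a BMP target, fell by 0.30 on the log2 scale. The calls of Msx2 and Id1 held in 2 of 6 omissions of a library and that of Stra6 in 3. Of 11 partners of PRDM14 and PRDM1, 2 were called in the soma after dex, beside the 8.18% of all genes. They were the corepressors Tle1 (0.28) and Tle3 (-0.35), in opposite directions, Tle1 called in 3 and Tle3 in all 6 omissions. Of 19 matched meiotic genes, 18 were higher and 1 lower in germ cells after saline, beside 86.1% of all genes called. A gene high in germ cells can pass the filter through them alone, so nothing is read from that count. In the soma after dex edgeR called 0 of 14, beside 8.18% of all genes. An unadjusted p under 0.05 (edgeR) was found for 4 of them, beside 3453 of all 16556 genes tested. DESeq2 called 1, Smc1b, which was at 2.49 ± 0.844 CPM in the saline and 6.56 ± 3.56 CPM in the dex soma. In saline germ cells it was at 1936 ± 147 CPM. The part of germ cell RNA in its somatic levels was not tested.

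**Figure D4:**
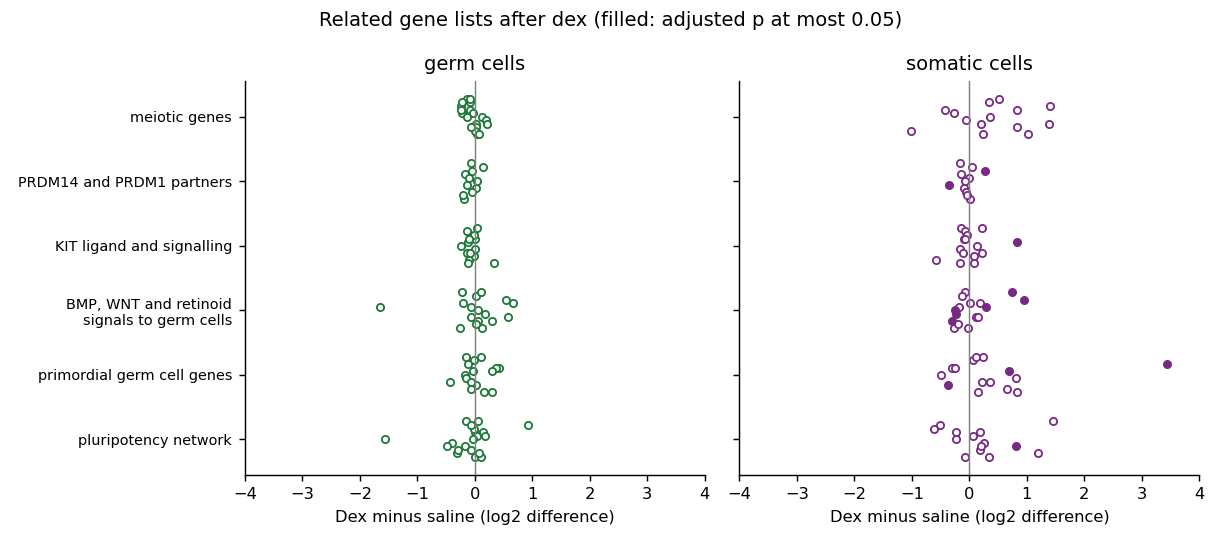
Log2 difference between dex and saline for the tested genes of 6 related lists, germ cells on the left and soma on the right; each point is a gene, and filled points have an adjusted p of at most 0.05. No point is filled in germ cells, and 13 are filled in the soma, the farthest being Dazl at 3.43.

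The 5 genes whose 4 group means lay nearest to those of Pou5f1, by the root mean square difference of log2(FPKM + 0.1) among 17979 candidates, were Pabpc6 (0.0459), Nkx2-4 (0.0626), Myt1l (0.099), Dnah12 (0.135) and 4933427D06Rik (0.187). Pabpc6 was at 8.59 FPKM in saline and 8.97 FPKM in dex germ cells, and Nkx2-4 at 8.25 and 9.86 FPKM, with at most 0.0256 FPKM in the soma for both. This likeness is over 4 means from the same 12 libraries and is a description.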

How the data were processed

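The authors and their sequencing provider aligned read pairs of poly-A selected, randomly primed cDNA to mm10 with HISAT2 2.0.5 and counted them per gene with featureCounts 1.5.0-p3, as given in the submitters' processing notes, which also name DESeq2 1.20.0. The strand setting and the handling of multiply mapped reads were not stated in the sources used here. The authors deposited these raw counts and FPKM values of the same genes. Tables of the authors' own dex comparison hold fold changes and p-values and were not used. Coordinates in the files equalled GENCODE M21 for all 10 genes.

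Counts were tested with edgeR 4.0.16 (R 4.3.3): TMM scaling, filterByExpr, quasi-likelihood F test, no covariate, and Benjamini-Hochberg adjustment over all genes tested with a threshold of 0.05. Each comparison used its own 6 libraries, and the difference of the dex effects used all 12. SEs are those implied by the F statistic. A group with at most 3 counts in every library was set to 3 counts per library and the fold given as a lower bound, which covers counting error only. The procedure was tested on simulated data. Alternatives were other size factors, no low-count filter, DESeq2 1.42.0, a replicate block, 1 fit of all libraries and omission of each library.

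The genes, related lists, marker lists and motifs were chosen with earlier results of these data known. From each related list up to 4 called genes per comparison with a mean of at least 1 CPM in a group were eligible to be named, largest difference first, and the text names a part of them. Sycp1 and Smc1b, and Kitl and the marker genes where not called, were named after their values were seen. Libraries with the same replicate number were pools of litters, with no label of a shared litter or day, and p-values measure the spread between such pools. No 2 libraries of a group agreed within sampling noise.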

Additional observations from a re-analysis of the deposited data

Results flagged for a closer look

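The effect of dex differed between the fractions for 1 of the 8 genes tested (edgeR, test of germ cells minus soma). The same held for 5 of the 100 genes tested from the related lists, beside 1.62% of all genes in that test. The genes and lists were chosen with earlier results of these data known, so these shares are not read as an excess. For Kit the difference of the log2 effects was -0.94 (edgeR, adjusted p = 0.000955). In germ cells every dex library lay below every saline library, and in the soma every dex library lay above every saline library. The somatic difference by itself was not called (edgeR, adjusted p = 0.0511). How many of all genes separated in this way was not counted.

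Dazl had a difference of -3.56 (edgeR, adjusted p = 1.91e-10), with 1072 ± 43.9 and 982 ± 36.9 CPM in saline and dex germ cells beside the somatic rise given above. Cyp26b1 had one of -2.40 (edgeR, adjusted p = 0.00545), with germ cell levels of 1.27 ± 0.389 CPM after saline and 0.399 ± 0.227 CPM after dex. Its germ cell log2 difference of -1.64 was not called (edgeR, adjusted p = 0.271). The lowest dex germ cell library, at 0.201 CPM, was at the level of 3 counts. Klf5 had one of -0.99 (edgeR, adjusted p = 0.00772), with 16.3 ± 2.08 and 14.51 ± 1.44 CPM in germ cells. Pik3r1 had one of -0.80 (edgeR, adjusted p = 0.00234). Hormad1, a gene of the meiotic chromosome axis, had one of -1.66 (edgeR, adjusted p = 0.028), a call that held in 5 of 12 omissions of a library. It was at 630 ± 57.4 and 528 ± 8.998 CPM in germ cells and at 0.480 ± 0.0899 and 1.29 ± 0.619 CPM in the soma. Over the 14 meiotic genes tested in the soma the median log2 difference after dex was 0.35. The part of germ cell RNA in these low somatic levels was not tested.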

How the results depend on the processing

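The fall of Kit in germ cells and its difference from the soma were called under each alternative run. Of the 10 genes, the number called in germ cells after dex was 1 and became 3 without the low-count filter, with Lin28a and Dppa3 added. In the soma it was 0 and became 2 without the filter (Kit and Prdm1), 1 with DESeq2 and 1 with the replicate block (both Kit), and 0 to 1 when a library was left out. The block used replicate numbers that share no stated litter or day. Deviations of same-numbered libraries correlated at 0.13, 0.0079 and 0.039 in germ cells and 0.048, -0.0097 and 0.027 in the soma, and at 0.054 to 0.099 between germ cells and soma, where each library correlated best with its own number. The block changed no other count of these genes.

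Over all genes, calls in germ cells were 35, and 420 without the filter, 158 with DESeq2, 64 in a fit of all 12 libraries and 17 to 81 with a library left out. Somatic calls were 1354, 1946 without the filter, 1477 with DESeq2, 803 in the fit of all libraries and 754 to 1881 with a library left out. Calls for the difference of effects were 314, 727 without the filter, 620 with DESeq2 and 143 to 384 with a library left out. A replicate block within each treatment, which was not planned beforehand, pairs the germ cell and somatic libraries of a number. It gave 222 calls, with Kit still called. The cause was not tested. With a library left out, uncalled values changed sign for Pou5f1 (-0.061 to 0.40) and Sox2 (-0.017 to 0.23) in germ cells, and for Tfap2c (-0.35 to 0.079) and Dppa3 (-0.77 to 2.96) in the difference of effects. Nanog, with 0 to 4 counts in a germ cell library, was at the limit of this depth.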
